A study of Drosophila melanogaster with 2 samples.

Results

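Binding of the CG1620 protein was examined at the promoters of 10 genes of the fly splicing machinery: the SR protein genes SF2, B52, SC35 and x16, and the U2AF, snRNP and U2-associated genes U2af38, U2af50, snf, SmD2, SmD3 and Sf3b1. The genes were taken by name from the annotation, and all 10 were found among 13945 protein-coding genes on the chromosome arms and chromosome 4 of the dm6 build. Their FlyBase identifiers are FBgn0283477 (SF2), FBgn0004587 (B52), FBgn0265298 (SC35), FBgn0028554 (x16), FBgn0017457 (U2af38), FBgn0005411 (U2af50), FBgn0003449 (snf), FBgn0261789 (SmD2), FBgn0023167 (SmD3) and FBgn0031266 (Sf3b1). A gene was counted as bound when a peak summit lay within 500 bp of one of its annotated transcription start sites (TSSs). The material was whole adult female Drosophila melanogaster of 1 transgenic line in which CG1620 carries a C-terminal GFP tag; an anti-GFP antibody pulled down the chromatin, and its DNA was sequenced (ChIP-seq). There were 2 biological replicates, labelled 2 and 3, in 1 group; the age of the flies is not given, and all tissues of the fly contribute to each value. No second condition exists, so no test was made between samples, and genes are not replicates, so no p-value is given.

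Splicing removes introns in steps carried out by the spliceosome, which is built from small nuclear ribonucleoproteins (snRNPs). Each snRNP of the Sm class carries a ring of Sm proteins around its RNA. SR proteins have RNA recognition motifs and a tail rich in arginine and serine, bind exons, and help to recruit the U1 snRNP and U2AF to nearby splice sites. U2AF reads the end of the intron, and the U2 snRNP then pairs with the branch site. These proteins are used in nearly all cell types, and in flies some of them also take part in regulated splicing, as snf does in that of Sex-lethal, the switch gene of sex determination.

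Of the 10 genes, 9 had a promoter peak in the optimal IDR set, a selection the authors made from the replicate and pooled lists by the irreproducible discovery rate (IDR). This share of 90.0% compares with 26.3% of all protein-coding genes. The gene without one was x16. In the pooled list of 30000 candidates, which extends into background, all 10 genes had a promoter candidate, against 57.5% of protein-coding genes. The members were chosen with results of these data known, so the share describes these 10 genes and supports nothing about splicing genes as a class. The IDR set is the 3894 strongest peaks of the pooled list, with signals down to 70.0, so a place in it does not by itself show that a peak ranked alike in both replicates. The signal is the authors' own peak score, and it was not scaled between lists, so values from different lists are compared here through their ranks. The exception is the log2 ratio of the replicate signals at a peak, which is read only beside the same ratio over promoter IDR peaks. The depth of sequencing is unknown, since no read counts come with the peaks.

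Each member had a TSS head to head with that of another protein-coding gene, on the opposite strand and at most 1000 bp upstream. The pairing is by TSS and does not mean that the genes are separate. An intron of Oda, the partner of SmD3, also covers coding sequence of SmD3. SC35 and its partner eRF3 overlap, and the SC35 IDR summit lay 595 and 822 bp from the paired TSSs of SC35 and eRF3. Such divergent pairs hold 36.2% of protein-coding genes and 53 of 75 other listed splicing genes, or 70.7%. The arrangement was not named in the choice of the members, but it is not independent of it, because IDR peaks were more frequent at such pairs. The gap between the paired TSSs ran from 104 bp at U2af50 to 780 bp at B52, with a median of 251 bp among the members and 298 bp among all paired genes. Among protein-coding genes in a divergent pair, 48.4% had a promoter IDR peak, against 13.7% of those in no such pair. The members' 9 of 10 is therefore to be read beside 48.4% as well as beside 26.3%.

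The sequences of 5 of these promoters are shown as examples, chosen with their values and motifs known; the copy numbers of the other members are given with the motifs. SF2 and B52 have the strongest SR promoter peaks, snf and Sf3b1 lie in short intervals shared with a second gene, and x16 is the member without an IDR peak. Each is the stretch just upstream of the gene's TSS, read 5′ to 3′ on the strand of the gene and cut where an annotated exon begins or at 300 bases, in the RefSeq copy of the release 6 genome. The base before the TSS is the last one. Capitals mark CGATA on either strand, where TATCG is its reverse complement; TATCGATA holds 2 overlapping copies. CGATA is known as the core sequence bound by the insulator protein BEAF-32, and TATCGATA as the DNA replication-related element (DRE) bound by Dref. The stretches are chr3R:16341989-16342288 (minus strand) for SF2, chr3R:13661011-13661310 (plus) for B52, chrX:5308984-5309241 (plus) for snf, chr2L:568122-568339 (plus) for Sf3b1 and chr2L:6920211-6920510 (minus) for x16.
SF2: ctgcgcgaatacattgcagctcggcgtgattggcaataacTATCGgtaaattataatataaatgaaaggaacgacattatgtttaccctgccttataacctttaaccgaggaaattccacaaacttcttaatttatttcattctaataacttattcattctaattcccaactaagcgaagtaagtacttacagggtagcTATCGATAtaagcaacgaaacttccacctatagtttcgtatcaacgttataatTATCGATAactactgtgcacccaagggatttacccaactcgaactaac
B52: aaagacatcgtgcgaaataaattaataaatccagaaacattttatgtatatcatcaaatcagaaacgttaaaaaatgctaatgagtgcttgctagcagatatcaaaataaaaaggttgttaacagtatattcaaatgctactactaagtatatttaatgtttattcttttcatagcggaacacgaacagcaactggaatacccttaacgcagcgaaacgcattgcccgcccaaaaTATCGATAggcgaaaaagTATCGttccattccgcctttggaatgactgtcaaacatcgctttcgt
snf: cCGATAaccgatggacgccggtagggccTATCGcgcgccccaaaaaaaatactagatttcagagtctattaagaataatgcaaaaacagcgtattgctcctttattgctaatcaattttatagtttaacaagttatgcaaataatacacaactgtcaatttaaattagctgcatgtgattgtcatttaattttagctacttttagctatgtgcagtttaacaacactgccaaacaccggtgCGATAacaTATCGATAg
Sf3b1: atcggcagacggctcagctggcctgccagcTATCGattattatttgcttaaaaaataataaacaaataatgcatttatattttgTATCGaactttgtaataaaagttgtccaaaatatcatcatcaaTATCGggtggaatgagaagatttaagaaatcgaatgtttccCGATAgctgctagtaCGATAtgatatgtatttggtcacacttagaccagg
x16: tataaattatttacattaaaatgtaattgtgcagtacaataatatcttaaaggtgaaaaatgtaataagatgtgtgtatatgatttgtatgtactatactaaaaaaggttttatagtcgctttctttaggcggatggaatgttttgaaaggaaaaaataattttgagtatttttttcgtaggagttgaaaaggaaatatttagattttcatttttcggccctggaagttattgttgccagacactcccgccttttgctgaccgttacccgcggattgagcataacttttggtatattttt

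Among the SR protein genes, signal fell in the order SF2, B52, SC35 and x16. SF2, an SR protein that promotes use of nearby splice sites, had the strongest peak of the 10 genes. Its pooled signal was 296 at rank 331, and 97.0% of protein-coding genes had a weaker promoter candidate or none. Replicate 2 placed it at rank 356 (signal 206), and replicate 3 at rank 276 (signal 89.3). The peak spanned chr3R:16341982-16342381, and its summit at 16342182 lay in intergenic sequence, 194 bp from the TSS of SF2 and 136 bp from that of pad, which encodes a zinc finger protein. SF2 thus ranked high in each replicate on its own, but the summit was nearer to its neighbour.

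B52, an abundant SR protein found at active puffs of polytene chromosomes, was the only member whose IDR peak held no TSS of a second protein-coding gene within 500 bp. Its pooled signal was 169 at rank 1042, with ranks of 1000 in replicate 2 (signal 126) and 1393 in replicate 3 (signal 39.6). The summit at chr3R:13661246 was intergenic, 65 bp upstream of the first TSS, and the summits of the replicates lay 0 and 9 bp from it. The signal of SF2 was 1.75 times that of B52 in the pooled list, 1.64 times in replicate 2 and 2.26 times in replicate 3. A second, weaker candidate lay 134 bp inside the gene, in the 5′ untranslated region (UTR). It ranked 20397 in the pooled list and 5979 in replicate 2, and replicate 3 had none there.

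SC35 encodes an SR protein of the core splicing machinery. Its IDR peak lay at an internal TSS rather than at the first. The summit at chr2L:12434070 was in an intron of the longer transcripts, 32 bp upstream of the TSS at 12434038, and 382 bp from a TSS of eRF3, a translation release factor gene. Its pooled signal was 89.6 at rank 2821. In replicate 2 it ranked 2687 (signal 69.8), and in replicate 3 the overlapping candidate ranked 7213 (signal 12.8). The strongest SC35 candidate of replicate 3, at rank 2909, was elsewhere, with its summit at 12434629 in the 5′ UTRs of both SC35 and eRF3, 36 bp inside SC35 from its first TSS. The replicates therefore differed in which end of the SC35 promoter region was stronger.

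The x16 gene encodes an SR protein with a zinc knuckle. Its strongest pooled candidate had a signal of 35.4 at rank 10206, which is 50.6% of the weakest IDR signal. The summit at chr2L:6920244 was 34 bp upstream of the TSS. Replicate 2 had a candidate 1 bp away at rank 6858 (signal 36.1), and replicate 3 had no candidate overlapping it. The strongest candidate of replicate 3 within the window ranked 4403 (signal 16.7) and lay at -490 bp from the x16 TSS, where a minus sign means upstream. That summit was 4 bp from the TSS of the paired gene, Hrb27C. The nearest IDR peak to the x16 TSS lay 12222 bp away, between Polr1F and Rat1.

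**Figure D1:**
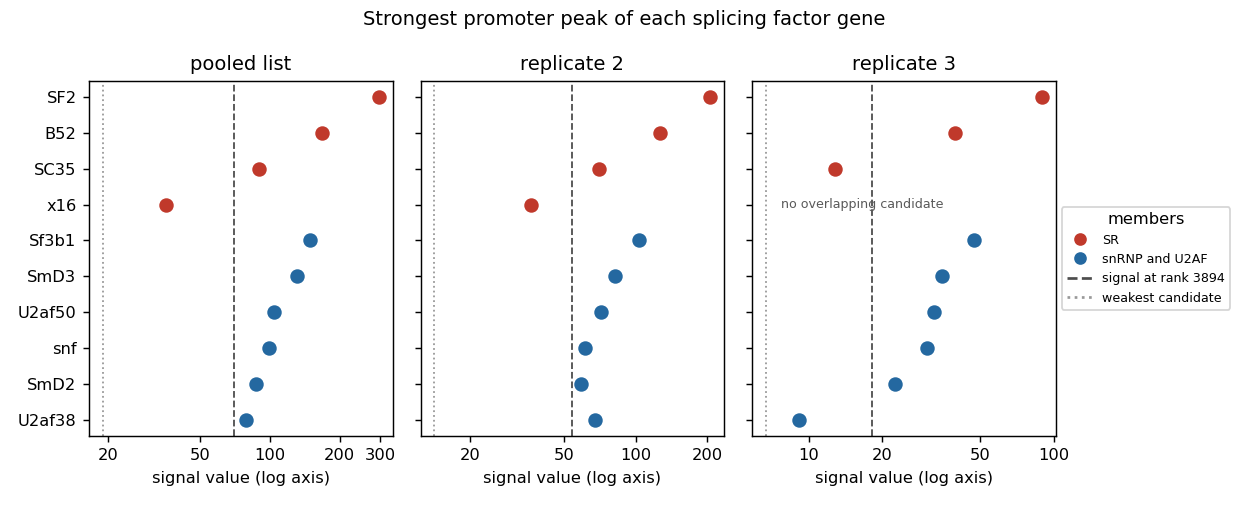
Signal value of each member's strongest pooled promoter peak (left) and of the overlapping candidate in replicate 2 (centre) and replicate 3 (right), on log axes with a scale for each list, SR members above snRNP and U2AF members. Dashed lines mark the signal at rank 3894 and dotted lines the weakest candidate of each list: x16 lies below the dashed line in the pooled list, and SC35 and U2af38 fall below it in replicate 3.

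The snRNP and U2AF genes all had promoter IDR peaks, in a narrower range of signals. Sf3b1, the large subunit of the U2-associated SF3b complex that grips the branch site region, was the strongest of them, with a pooled signal of 149 at rank 1282. Replicate 2 placed it at rank 1427 (signal 103), and replicate 3 at rank 1066 (signal 47.1). The summit at chr2L:568223 lay between 2 TSSs 219 bp apart, 117 bp from that of Sf3b1 and 102 bp from that of Nle, a gene of ribosome assembly and Notch signalling. The peak was similar in both replicates, and it sat about midway between the pair.

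SmD3, an Sm ring protein, followed with a pooled signal of 130 at rank 1623, and ranks of 2134 in replicate 2 (signal 81.3) and 1656 in replicate 3 (signal 34.9). Its summit at 12168655 on 2R was 76 bp upstream of the TSS, in an intron of Oda, the ornithine decarboxylase antizyme gene. A TSS of Oda on the opposite strand was 167 bp from the summit. SmD2, another Sm ring protein, had a weaker peak, with a pooled signal of 86.7 at rank 2961, and ranks of 3412 in replicate 2 (signal 59.0) and 2947 in replicate 3 (signal 22.4). Its summit at 6345978 on 3R was intergenic, 67 bp from the TSS of SmD2 and 133 bp from that of CG18048. Both Sm genes thus had summits nearer to their own TSS than to the neighbour's.

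The snf gene encodes the protein that in flies serves in both the U1 and the U2 snRNP, where vertebrates use separate proteins. Its pooled signal was 99.2 at rank 2453, with ranks of 3226 in replicate 2 (signal 61.3) and 1966 in replicate 3 (signal 30.5). The summit at 5309153 on X was intergenic, 89 bp upstream of snf and 170 bp from the TSS of Cdk7, the kinase of the general transcription factor TFIIH.

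The U2AF subunits differed in how far the replicates bore out their peaks. U2af50, the large subunit that binds the polypyrimidine tract, had a pooled signal of 104 at rank 2292, and ranks of 2595 in replicate 2 (signal 71.3) and 1812 in replicate 3 (signal 32.6). Its summit at 16359198 on X fell in the 5′ UTR of PIG-Q, a gene of GPI anchor synthesis, 55 bp from the TSS of PIG-Q and 159 bp from that of U2af50. The summits of the replicates and of the pooled list were at the same base. U2af38, the small subunit that reads the AG at the end of the intron, had the weakest IDR peak of the members, with a pooled signal of 78.5 at rank 3346, or 1.12 times the weakest IDR signal. Its rank was 2843 in replicate 2 (signal 67.2), but 15531 of 30000 in replicate 3, where its signal was 9.15 and the weakest of the list 6.69. The summit in replicate 3 was at the same base as in the pooled list. Its summit at 295057 on 2L lay 376 bp from the TSS of U2af38 and 65 bp from that of Stip1, a co-chaperone gene. The peak near U2af38 thus ranked within 3894 in replicate 2 but not in replicate 3, with its summit closer to the TSS of the neighbour.

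**Figure D2:**
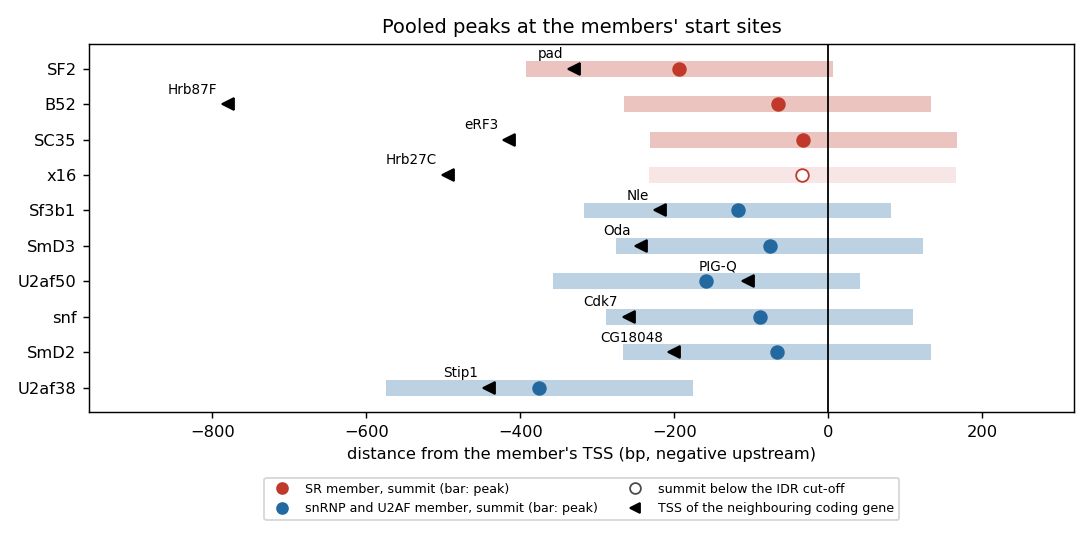
Position of each member's strongest pooled peak (bar) and its summit (circle) relative to the member's nearest TSS in bp, with the TSS of the neighbouring coding gene (triangle), SR members above snRNP and U2AF members. The summits lie upstream of the member's TSS, from 32 bp at SC35 to 376 bp at U2af38; the open circle is x16, whose peak is below the IDR cut-off.

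All 9 summits lay upstream of the nearest TSS of the member, with a median of -89.0 bp, against 86.2% and a median of -90.0 bp over protein-coding genes with a promoter IDR peak. The summits were intergenic in 6 of the 9 peaks, against 56.4% of IDR peaks at coding promoters. In 8 of the 9, a TSS of another protein-coding gene was also within 500 bp of the summit. Counted by gene in the same way, this held for 60.7% of 3662 protein-coding genes with a promoter IDR peak and for 87.9% of the 2446 of them in divergent pairs, so the members were like other divergent genes in this. The summit was nearer to the other gene at SF2, U2af38, U2af50 and Sf3b1, which are 4 of the 9. When each peak was given only to the gene with the nearest TSS, 5 members kept one, namely B52, SC35, SmD2, SmD3 and snf, and the share of protein-coding genes was 19.2%. At the 8 shared peaks, binding at the splicing gene and at its neighbour cannot be told apart from these lists. Inside the genes and away from the promoter windows there were 11 pooled candidates in 5 members and 0 IDR peaks. The strongest of these, in coding sequence of SF2, had a signal of 46.0 at rank 6798. The same counts were not made over all protein-coding genes, so they describe the members only.

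Replicate 2 alone gave 9 of the 10 genes a promoter candidate among its 3894 strongest, against 25.9% of protein-coding genes. Replicate 3 alone gave 8, without U2af38 and x16, against 25.4%. In 7 of the 9 IDR peaks, the overlapping candidates ranked within 3894 in both replicates; the exceptions were SC35 and U2af38. Of all promoter IDR peaks with a partner in both replicates, 78.1% did so, which is close to the share of the members. The log2 ratio of the signal in replicate 2 to that in replicate 3 ran from 1.01 at snf to 2.88 at U2af38. Over promoter IDR peaks with a partner in both replicates its median was 1.46, and 3.16% had a ratio above that of U2af38. Summits of the replicates were at most 43 bp (replicate 2) and 50 bp (replicate 3) from the pooled summit. The order of the 10 genes by pooled signal was SF2, B52, Sf3b1, SmD3, U2af50, snf, SC35, SmD2, U2af38 and x16. Of the 9 steps between neighbours in that order, 4 had the same direction in both replicates: SF2 over B52, Sf3b1 over SmD3, SmD3 over U2af50, and U2af50 over snf. The other 5 did not have one direction in both replicates, or lacked a value in replicate 3, as x16 did.

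**Figure D3:**
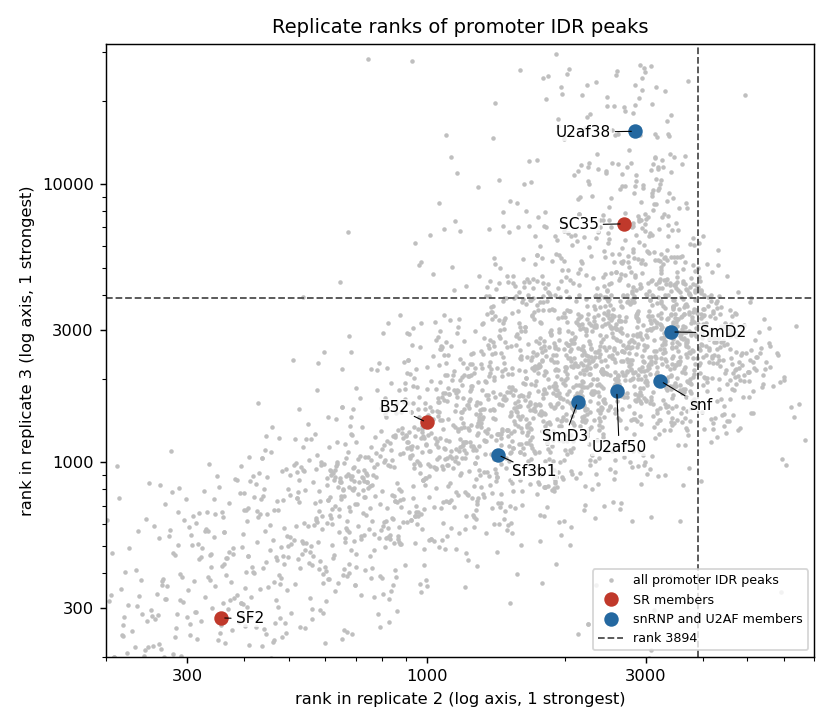
Rank in replicate 2 (x axis) against rank in replicate 3 (y axis) of the candidates that overlap each promoter IDR peak, on log axes that leave out the strongest ranks; grey points are all promoter IDR peaks with a partner in both replicates, coloured points the 9 members with an IDR peak, and dashed lines rank 3894. SF2 is strong in both replicates, 7 members lie inside both lines, and SC35 and U2af38 lie above the line of replicate 3.

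Set side by side, SR and snRNP or U2AF members overlapped in signal. IDR peaks were present at 3 of 4 SR genes and at 6 of 6 snRNP and U2AF genes. The strongest promoter candidates had pooled signals from 35.4 to 296 in the SR genes (median 129) and from 78.5 to 149 in the snRNP and U2AF genes (median 101). The SR genes therefore held both the strongest and the weakest values. On the log2 scale the median of the SR genes minus that of the others was 0.28 in the pooled list and 0.44 in replicate 2, and the sign turned to -0.07 in replicate 3. These medians used the strongest candidate of each gene in the window. In replicate 3 those of SC35 (22.7) and x16 (16.7) did not overlap the pooled peak. The difference was not computed from overlapping candidates alone. Among the 1947 strongest IDR peaks, 2 SR genes (SF2 and B52) and 2 snRNP and U2AF genes (Sf3b1 and SmD3) had a promoter peak, or 4 of the 10, against 15.7% of protein-coding genes. With 4 and 6 genes and a sign that, for the strongest candidates, differed between the replicates, the groups were not told apart.

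The sequence CGATA was present in the window from 250 bp upstream to 50 bp downstream of the TSS in 9 of the 10 genes, against 45.7% of such windows at coding TSSs and 54.8% at the TSSs of genes in divergent pairs. The member without it was x16. Within 50 bp of the summit it was present in 5 of the 9 members with an IDR peak, against 29.97% of promoter IDR summits. These were B52, SC35, SmD2, SmD3 and Sf3b1. It was absent there at x16, whose summit is not an IDR peak. The full TATCGATA was present in the promoter windows of SF2, B52, U2af38 and snf, or 4 of 10, against 7.98% of coding windows and 13.0% of those of divergent genes. For this and the other motifs, the window shares include genes without an IDR peak, while 9 of the 10 members have one. The shares at genes with a promoter IDR peak were not computed. Member positions are counted from the TSS nearest the pooled peak, while the shares cover all coding TSSs. An excess at the members is therefore not shown to be particular to them.

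These 4 genes differed in how far TATCGATA lay from the summit. At B52 it lay 4 bp from the summit and at -62 bp from the TSS. At SF2 there were 2 copies, at -98 and -44 bp from the TSS, and they lay 96 and 150 bp from the summit. At snf the copy lay at -6 bp from the TSS and 84 bp from the summit, and at U2af38 it lay at -24 bp from the TSS and 352 bp from the summit, outside the peak. Of the 10 genes, only B52 had this sequence within 50 bp of the summit. In the stretches printed above, CGATA occurred 5 times each in SF2, snf and Sf3b1, 3 times in B52 and 0 times in x16. The corresponding stretches of the other members held 4 copies at SmD3, 3 at U2af38 and 1 each at SC35, U2af50 and SmD2, so members with an IDR peak had between 1 and 5 copies. The stretches differ in length, from 103 bases at U2af50 to 300, so the counts are not on one scale. At U2af50 and U2af38 the summit lay upstream of the stretch. The 3 copies at U2af38 lay outside its peak, and a further copy, at -453 bp from the TSS, lay inside it. Of the 12 motifs searched, 4 had no match in any member's promoter window. These were GAGAG, found in 33.1% of coding windows, AACCCCC, found in 1.80%, CACGTG, found in 4.02%, and GGTATTTTT, found in 2.42%. In the windows of divergent genes their shares were 27.9%, 1.42%, 4.56% and 3.38%. A CACGTG at Sf3b1, at -248 bp from the TSS by its middle, reached past the edge of the window and was not counted. GAGAG in the peaks of B52 (67 and 69 bp inside) and U2af50 (-259 bp) lay outside the window. GGTCACAC, the core of the Motif 1 element bound by M1BP, was found at SmD2 and Sf3b1 (6.72% of coding windows and 11.2% of those of divergent genes). The other motifs searched on both strands were ATCGAT (6 members against 20.8% of coding windows), CATCNCTA (1 against 5.66%), CAGCTG (2 against 17.9%), TATAAA (7 against 42.2%) and TCAGT (2 against 52.1%). In the windows of divergent genes the shares of these motifs were 29.1%, 9.15%, 21.5%, 44.3% and 47.7%, in that order. ATCGAT lies within TATCGATA. A match is a description of the letters and not of a bound site.

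The base content within 50 bp of the summit varied widely among the members. The G and C content was 23.8% at Sf3b1, 26.7% at snf, 27.7% at SmD2 and 28.7% at SF2, all below the lower quartile of 31.7% over promoter IDR summits, whose median was 39.6%. SmD3 lay at the other end with 59.4%, more than at 98.1% of those summits. The B52 window held 47.5% and that of x16 49.5%. Both the SR genes and the snRNP and U2AF genes thus spanned a wide range of base content.

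A pair of SR genes had genes of hnRNP proteins as their divergent partners, an arrangement that was noticed after the values were seen. The hnRNP proteins bind nascent transcripts and often counter SR proteins in the choice of splice sites. B52 is paired with Hrb87F across 780 bp, and x16 with Hrb27C across 494 bp. B52 and Hrb87F each had an IDR peak of its own, with pooled signals of 169 for B52 and 75.7 for Hrb87F, 65 and 70 bp upstream of their TSSs. In replicate 2 the ranks were 1000 for B52 and 4503 for Hrb87F, and in replicate 3 they were 1393 and 2672. At the other pair neither gene reached the IDR set. The signals were 35.4 for x16 and 50.7 for Hrb27C, whose strongest candidate lay at another of its TSSs.

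Across the rest of the splicing machinery, promoter IDR peaks were present at 31 of 75 listed genes, or 41.3% (95% exact binomial interval 30.1 to 53.3%), against 26.3% of all protein-coding genes. Of these 75 genes 53 lay in divergent pairs, and 25 of the 53, or 47.2%, had a peak, close to the 48.4% of all divergent genes. Of the 22 others, 6 had one, or 27.3%, against 13.7% of protein-coding genes in no divergent pair. Of these 6, 5 were among the 10 hnRNP and regulator genes in no divergent pair, and the other 4 lists together had 1 of 12, or 8.33% (0.211 to 38.5%). Of the 31 genes with a peak, 22 shared it with another protein-coding gene, or 71.0%, against 60.7% of all protein-coding genes with a peak. The intervals cover counting error only. They are no test against the other shares, since the lists were chosen with earlier results of these data known.

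Other SR-related genes had peaks in 5 of 11 cases, or 45.5%, against 26.3% of all protein-coding genes and 48.4% of those in divergent pairs. The strongest were at SRPK (signal 315) and Doa (302), both of which encode kinases that phosphorylate SR proteins. Each was above SF2 in the pooled list and in replicate 2 (ranks 285 for SRPK and 274 for Doa, against 356 for SF2). In replicate 3 SF2 was ahead, at rank 276, with SRPK at 286 and Doa at 543. Srp54, an SR family gene, had a candidate at 51.3 and did not reach the set. The third SR protein kinase gene listed, Srpk79D, had a candidate at 55.4.

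The Sm and LSm genes other than the members had IDR peaks in 2 of 11 cases, SNRPG (signal 187) and LSm1 (123). In the Sm ring, 3 of 7 genes had a promoter IDR peak, namely SNRPG, SmD2 and SmD3. SmB (62.1), SmF (47.8), SmD1 (41.0) and SmE (22.8) had candidates below the cut-off. The 2 of 11 and the 3 of 7 stand beside 26.3% of all protein-coding genes and 48.4% of those in divergent pairs.

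Genes of the U1 and U2 snRNPs and of U2AF-related proteins had peaks in 7 of 16 cases, led by Sf3b6 (224), whose product lies at the branch point, and Caper (159), a relative of the large U2AF subunit. In the SF3a and SF3b complexes together, 5 of 9 genes had one, namely Sf3b1, Sf3b6, Sf3a1, Sf3a2 and noi, and Sf3b2, Sf3b3, Spx and Sf3b5 had none. In the U4, U5, U6 and Prp19 group it was 8 of 21, led by fand (234) and U4-U6-60K (207). Among hnRNP and regulator genes it was 9 of 16, led by glo (207), an hnRNP of the germline, and Fmr1 (149), a translational regulator. The shares of these lists, 43.8%, 38.1% and 56.25%, stand beside 26.3% of all protein-coding genes and 48.4% of those in divergent pairs. Of their genes, 13 of 16, 18 of 21 and 6 of 16 lay in divergent pairs. The groupings of the Sm ring and of SF3a with SF3b were made, and Srp54 and Srpk79D were named, after the values were seen. Both groupings hold members, which were chosen with results known.

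**Figure D4:**
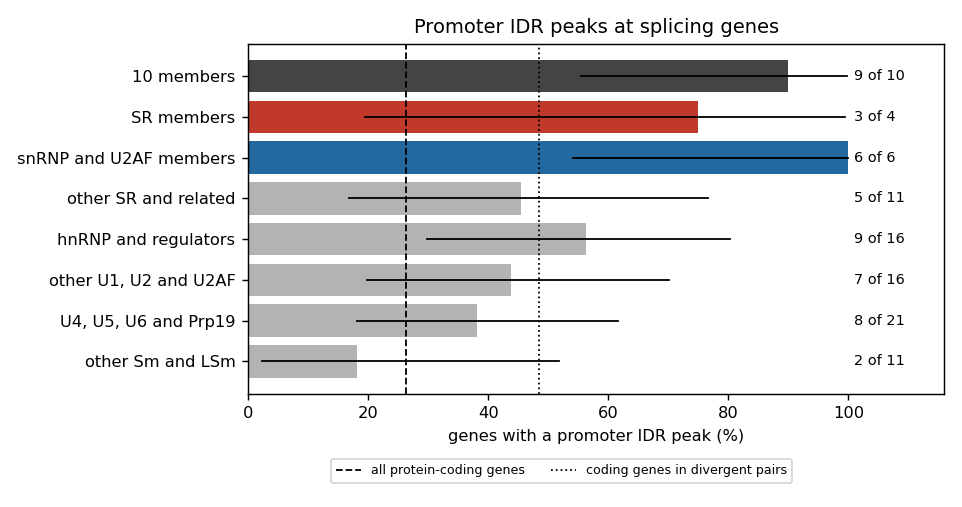
Share of genes with a promoter IDR peak (%, bars) for the members, for the SR and the snRNP and U2AF members, and for 5 lists of other splicing genes, with exact 95% binomial intervals (lines) and counts at the right. The dashed line is the share of all protein-coding genes (26.3%) and the dotted line that of coding genes in divergent pairs (48.4%). All bars and intervals are descriptive and are no test against either share, since the members and the lists were chosen with results known.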

How the data were processed

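The authors deposited peak lists, not reads. Per the labels, the chromatin came from 2 biological replicates and was sonicated to 200 to 800 bp. Text files beside the lists record, per the labels of each entry, that a replicate's candidates derive from that replicate's alignments and 1 further file, taken to be the control, that another list pools both replicates, and that IDR selected the optimal set; the build is dm6. Aligner, peak caller, IDR threshold and versions: not given in the sources used here. The deposited signal is the peak caller's score, unscaled between lists. The summit offset, from the peak start, is the authors' too. Lists on dm3 were not used. Shared reads between near-identical promoters could not be checked.

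Summits were assigned to TSSs of Ensembl release 115, 1-based, without pseudogenes and transposable elements, with Python 3.11.15, pandas 2.3.3, NumPy 2.4.6 and SciPy 1.17.1. A partner in a replicate overlaps by at least 50% of either peak. Divergent pairs have TSSs on opposite strands at most 1000 bp apart. The assignment was tested on simulated peaks. Of 80 listed symbols of other splicing genes, 76 were matched, to 75 genes. The 10 members, the lists and the alternatives were chosen with earlier results of these data known. From each list the 2 genes with the strongest peaks are named, and others where noted. Alternatives changed the window, cut-off, assignment and replicate. Intervals are exact binomial (Clopper-Pearson).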

Additional observations from a re-analysis of the deposited data

How the results depend on the processing

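The count of 9 members with a promoter IDR peak was 8 with a 250 bp window, 9 with a 1000 bp window and with any overlap of the peak, and 8 to 9 with 1 replicate left out, that is, with the 3894 strongest candidates of the other alone. U2af38 was the gene lost at 250 bp and without replicate 2. Among the 1947 strongest IDR peaks, the counts were 4 members (2 SR, 2 snRNP and U2AF), 19 other splicing genes and 15.7% of protein-coding genes. With each peak given to the nearest TSS only, they were 5 members, 3 of them snRNP and U2AF genes. With only peaks that hold the TSSs of 1 coding gene, an alternative chosen after seeing the data, they were 1 member, B52 (1 SR, 0 snRNP and U2AF), 9 other splicing genes and 10.7% of protein-coding genes. The SR difference on the log2 scale changed sign without replicate 2 (-0.07), with the strongest candidate of each gene in replicate 3. The lists give no depth, so how weak a peak could still be detected is unknown.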
